A study of Mus musculus with 15 samples.

Results

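The interferon-induced effector genes Ifit1, Ifit2, Ifit3, Ifit3b, Rsad2, Ifi44, Xaf1 and Trim30a were followed across mammary tumours of mice given antiangiogenic drugs. The gene set was drawn up as a list of 10 genes that also holds Mx1 and Mx2, and its members were the array probes whose transcript identifier belongs to a listed gene. Probes were found for 8 of the 10 genes, 10 probes in all, and all 8 genes were among the 28025 genes or unnamed transcripts tested. Mx1 and Mx2 were not analysed here because their identifiers in the name table match no probe. The list was selected on the levels of these arrays in all 4 groups, so the levels and differences below are a description and carry no test.

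These genes are switched on by interferons. An interferon binds its receptor, JAK kinases relay the signal, and a complex that includes STAT2 and IRF9 binds the interferon-stimulated response element in target promoters. The proteins act inside the cell: the Ifit proteins bind foreign RNA or the translation machinery, the Rsad2 product viperin makes a nucleotide that ends viral RNA chains, and the Mx proteins are GTPases that trap viral particles. In tumours the same genes are a common readout of interferon signalling in cancer cells and in the stroma and immune cells around them.

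All samples were mammary tumours dissected from female MMTV-PyMT mice, which carry the polyoma middle T oncogene under the mouse mammary tumour virus promoter, active mainly in mammary epithelium. The T0 group (n = 4) was sampled before any treatment, and the vehicle (n = 3), B20 (n = 4) and nintedanib (n = 4) groups at the end of treatment, which began when mice were 7 weeks old. The VEGF antibody B20-4.1.1 was injected into the peritoneum at 5 mg/kg, 2 times per week, and nintedanib, an inhibitor of the VEGF, FGF and PDGF receptor kinases, was given by gavage at 85 mg/kg per day. The strain, the vehicle's route, the length of treatment and the age at sampling are not given in the sources used here, nor is whether a sample was pooled. The labels do not say that the samples of a group were separate animals, so the spread and any p-value measure only the variation between these samples, which may be technical.

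Each sample was read on a 1-colour array. A level below is the log2 spot signal minus the 75th percentile of its array, and since probes differ in brightness, levels are compared only within a gene. A difference is in log2 with the standard error (SE) of the fit over all genes. The median raw signal of an array was 55 to 102 and its local background 19 to 26. On 14 arrays the software marked 53.4% to 68.1% of probes as well above background, and on T0 replicate 3 it marked 84.1%. The T0 arrays lay on slides and in scans of their own, and their file headers name another protocol than those of the other arrays. A difference between vehicle and T0 can therefore not be told apart from slide, scan and protocol. The end-of-treatment arrays shared a slide of 8 arrays and a slide of 3. T0 replicate 4 carries the treatment labels of both T0 and vehicle and was kept in T0 by its title. Markers of luminal epithelium, such as Krt8 and Epcam, were measured for 8 of 8 genes, and their summed level stayed between 8.90 and 9.45 on all arrays. The bright Krt18, with means of 8.40 in vehicle and 8.59 in T0, weighs most in that sum, and single markers moved more. In vehicle 6 of 8 were lower than in T0, with Epcam at -0.71 ± 0.29 and Esr1 at -1.80 ± 0.39 (adjusted p 0.0217, limma).

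Because the genes share an activator, their promoters are shown first. The RefSeq promoter table (GRCm38.p6) holds 300 bases around each start of transcription for all 8 genes. The core of the response element, GAAANNGAAA, was searched on both strands, where its reverse reads TTTCNNTTTC. It was found upstream of 5 of the 8 genes and in 6 of their 10 listed promoters, against 3.44% of all 32851 promoters in the table. Every match lay in the TTTCNNTTTC orientation on the gene's own strand. The stretches that hold the upstream matches follow, on the gene's strand, with the matches in capitals.
Ifit1, chr19:34640775-34640823, plus strand: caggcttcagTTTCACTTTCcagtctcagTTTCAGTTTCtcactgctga
Ifit3, chr19:34583363-34583426, plus strand: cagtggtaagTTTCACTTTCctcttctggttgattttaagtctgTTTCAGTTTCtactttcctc
Ifit3b, chr19:34607759-34607822, plus strand: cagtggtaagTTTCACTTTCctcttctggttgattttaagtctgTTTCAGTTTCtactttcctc
Rsad2, chr12:26456553-26456582, minus strand: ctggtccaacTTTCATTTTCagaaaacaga
Trim30a, chr7:104465210-104465239, minus strand: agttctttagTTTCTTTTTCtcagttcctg

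Ifit1, Ifit3 and Ifit3b each held 2 matches with the same letters, TTTCACTTTC and then TTTCAGTTTC. The printed stretches of Ifit3 and Ifit3b are identical, part of an unbroken run of 169 bases that their promoters share. The matches of Ifit1 lay nearer the start of transcription, beginning at bases -104 and -85, against -156 and -122 in Ifit3 and -188 and -154 in Ifit3b. The match of Rsad2 began at -120. Trim30a had a match at -36 and a further one 3 bases past the start of its second promoter. In the windows of Ifit2, Ifi44 and Xaf1 these letters were not found, which says nothing of more distant or less exact elements. The 4 Ifit genes lie together on chromosome 19 in the order Ifit2, Ifit3, Ifit1bl1, Ifit3b, Ifit1bl2, Ifit1. Rsad2 lies beside Cmpk2, Ifi44 beside Ifi44l, and Trim30a between Trim30c and Trim30d.

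**Figure D1:**
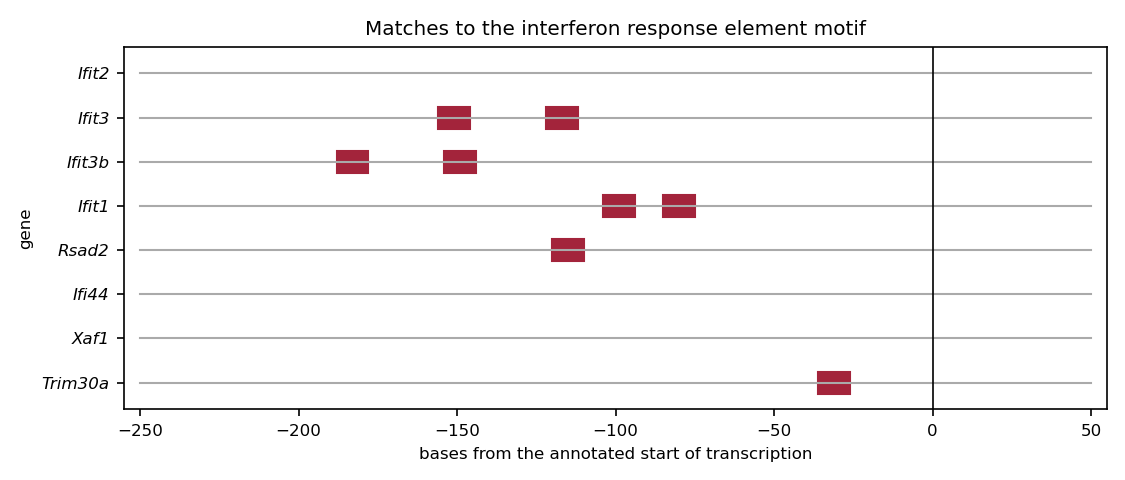
Position of matches to the response element core (filled boxes) in the listed promoter of each gene (grey lines, 1 promoter per gene), in bases from the annotated start of transcription (vertical line). Ifit1, Ifit3 and Ifit3b hold 2 matches each, Rsad2 and Trim30a 1, and Ifit2, Ifi44 and Xaf1 none.

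The comparison of the drugs with vehicle asks how tumours differed after treatment against blood vessel growth. All 8 genes had a higher mean level under nintedanib than under vehicle, by 0.60 to 2.42 log2 (1.52-fold to 5.36-fold), with a median difference of 1.80 against -0.01 over all genes tested. In B20 the mean was higher for 8 of 8 as well, by 0.50 to 2.14, with a median of 1.56 against 0.04 over all genes. A positive difference was fitted for 48.8% of all genes in the nintedanib comparison and for 55.1% in the B20 comparison. The lowest nintedanib array lay above the highest vehicle array for 8 of 8 genes, where 3.22% of all genes showed that order, and the lowest B20 array did so for 7 of 8, where 2.81% of all genes did. No gene of the array passed an adjusted p of 0.05 in either comparison (0% called in each, limma with Benjamini-Hochberg adjustment), although 1353 and 911 genes had an unadjusted p under 0.05. Among the 8 genes the adjusted p ran from 0.276 to 0.981 for nintedanib and from 0.618 to 0.998 for B20. Within the slide of 8 arrays the differences ran from 0.73 to 2.64 for nintedanib and from 0.58 to 2.32 for B20, and within the slide of 3 from 0.30 to 1.98 and from 0.35 to 1.82. In bulk tissue, more cells that express a gene and more RNA per cell cannot be told apart.

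**Figure D2:**
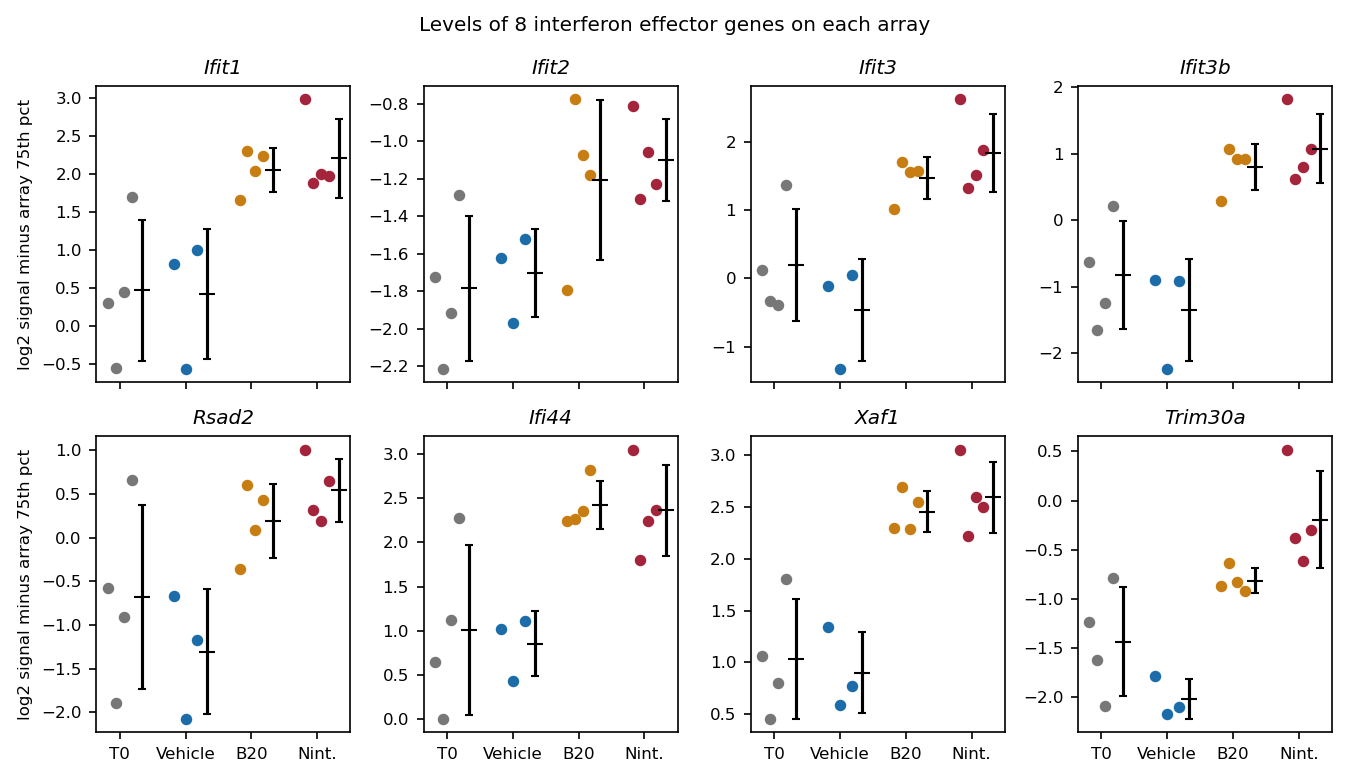
Level of each gene on each array (log2 signal minus the array's 75th percentile, points), by group, with the group mean and SD (black bars) and a vertical axis of its own for each gene. The nintedanib arrays lie above the vehicle arrays for 8 of 8 genes and the B20 arrays for 7 of 8, and T0 replicate 4, the rightmost grey point, lies above the other T0 arrays in every panel.

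Ifit1 encodes a protein that binds RNA whose cap lacks the methyl marks of host messengers. Its level was 0.82, -0.56 and 1.00 on the 3 vehicle arrays, 1.65, 2.30, 2.04 and 2.24 on the B20 arrays, and 2.98, 1.88, 1.996 and 1.98 on the nintedanib arrays. Every array of either drug lay above every vehicle array, and nintedanib replicate 1 stood apart from the other 3. The difference from vehicle was 1.79 ± 0.48 (SE) for nintedanib and 1.64 ± 0.48 for B20. Within slides the nintedanib difference was 2.16 on the slide of 8 arrays and 0.97 on the slide of 3, which holds 1 array per group.

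Ifit3 and Ifit3b are close copies, and in human cells IFIT3 binds IFIT1 and steadies its hold on RNA. Ifit3b stood at -0.90, -2.23 and -0.91 under vehicle, at 0.29, 1.06, 0.91 and 0.91 under B20, and at 1.81, 0.63, 0.80 and 1.07 under nintedanib. Ifit3 stood at -0.11, -1.32 and 0.04 under vehicle, at 1.02, 1.71, 1.57 and 1.58 under B20, and at 2.63, 1.33, 1.52 and 1.88 under nintedanib. In both genes the drug arrays were all above the vehicle arrays, vehicle replicate 2 was the lowest of the 15 arrays, and nintedanib replicate 1 the highest. Ifit3b had the largest difference of the 8 genes in each drug, 2.42 ± 0.45 for nintedanib and 2.14 ± 0.45 for B20, followed by Ifit3 with 2.30 ± 0.45 and 1.93 ± 0.45. The levels of the copies correlated at r = 0.99 over the 15 arrays, and since their sequences are alike, a probe of either may bind transcripts of both. A second, dim probe of Ifit3b, well above background on 1 of 3 vehicle arrays and on all 8 drug arrays, had means of -5.80 for vehicle, -3.15 for B20 and -2.74 for nintedanib.

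Ifit2, whose product also binds RNA and can promote cell death, differed least. Its level was -1.62, -1.97 and -1.52 under vehicle, -1.80, -0.78, -1.07 and -1.18 under B20, and -0.81, -1.31, -1.06 and -1.23 under nintedanib. The nintedanib arrays lay above all vehicle arrays, but B20 replicate 1 lay between vehicle arrays. The difference was 0.60 ± 0.26 for nintedanib (95% interval 0.05 to 1.16) and 0.50 ± 0.26 for B20, where the interval of -0.06 to 1.05 includes 0.

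Rsad2, the viperin gene, stood at -0.67, -2.08 and -1.17 under vehicle, at -0.36, 0.61, 0.09 and 0.43 under B20, and at 1.01, 0.32, 0.19 and 0.65 under nintedanib. The arrays of each drug lay above all vehicle arrays, B20 replicate 1 by little, and the drugs overlapped each other. The difference was 1.85 ± 0.49 for nintedanib and 1.50 ± 0.49 for B20. Cmpk2, the neighbour of Rsad2, encodes a mitochondrial nucleotide kinase, and differed by 0.98 ± 0.21 under nintedanib and 0.91 ± 0.21 under B20.

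Ifi44, a gene long used as an interferon marker, stood at 1.02, 0.43 and 1.11 under vehicle, at 2.25, 2.26, 2.35 and 2.82 under B20, and at 3.05, 1.80, 2.24 and 2.36 under nintedanib. It was the only one of the 8 with a higher mean under B20 (2.42 ± 0.27, SD, n = 4) than under nintedanib (2.36 ± 0.52, SD, n = 4), and the groups overlapped. Its differences from vehicle were 1.51 ± 0.43 and 1.57 ± 0.43 for nintedanib and B20.

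Xaf1 encodes a partner of the apoptosis inhibitor XIAP that favours cell death. Its level was 1.34, 0.59 and 0.78 under vehicle, 2.30, 2.69, 2.29 and 2.55 under B20, and 3.05, 2.22, 2.59 and 2.50 under nintedanib. The gap between groups was wide: the lowest drug array exceeded the highest vehicle array in each drug. Differences were 1.69 ± 0.30 for nintedanib and 1.55 ± 0.30 for B20, and they were alike within slides, at 1.66 and 1.73 for nintedanib. A second, dim probe of Xaf1, well above background on 1 of 3 vehicle arrays and on all 8 drug arrays, had means of -4.60 for vehicle, -3.27 for B20 and -2.94 for nintedanib.

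Trim30a encodes a ubiquitin ligase of the tripartite motif family that restrains Toll-like receptor signalling in mouse cells. Its level was -1.78, -2.17 and -2.09 under vehicle, -0.87, -0.63, -0.83 and -0.92 under B20, and 0.52, -0.38, -0.61 and -0.30 under nintedanib. The 3 groups formed separate ranges, lowest under vehicle and highest under nintedanib. The difference from vehicle was 1.82 ± 0.30 for nintedanib and 1.20 ± 0.30 for B20. Its neighbour Trim30d, a close relative whose probe may bind transcripts of both genes, differed by 2.05 ± 0.41 and 0.78 ± 0.41.

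**Figure D3:**
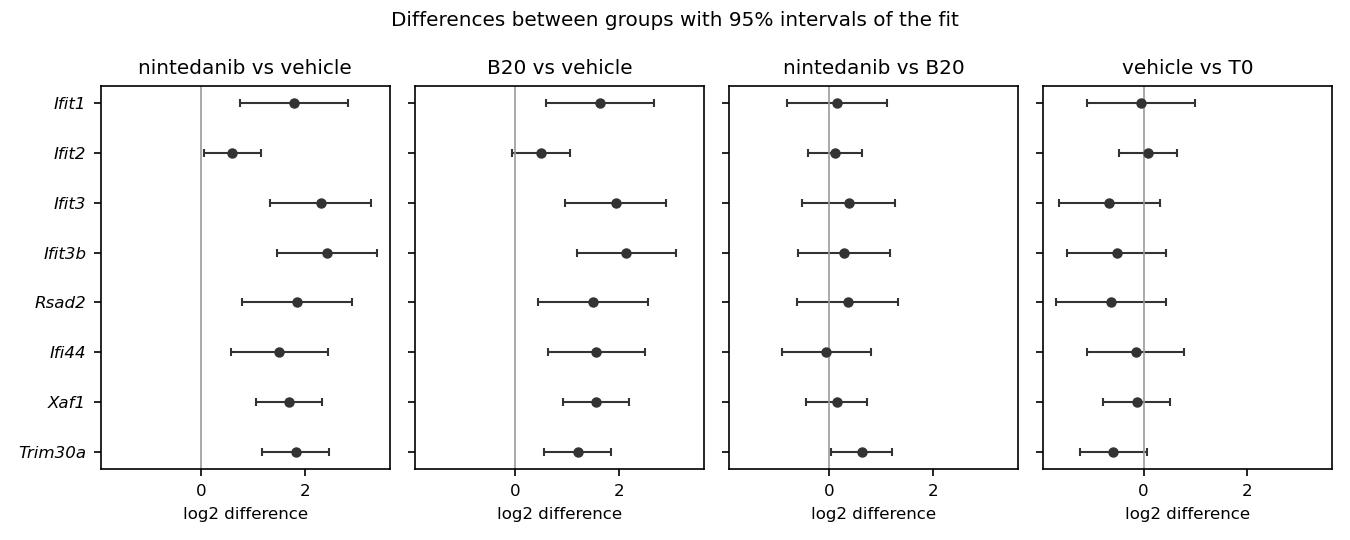
Difference in log2 level of each gene in the 4 comparisons (points) with the 95% interval of the fit (bars). In both comparisons with vehicle the points of 7 genes lie beyond 1, and that of Ifit2 lies at 0.60 for nintedanib and 0.50 for B20.

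The drugs were then set against each other. Between nintedanib and B20 the median difference of the 8 genes was 0.22 against -0.04 over all genes, with 7 higher and Ifi44 lower under nintedanib (-0.06 ± 0.40), where 44.7% of all genes had a positive difference. The 95% intervals of 7 genes included 0. For Ifit1 the interval ran from -0.81 to 1.11, and for Ifit3b from -0.61 to 1.17, so the data do not show that the drugs left these genes at the same level. Trim30a was higher under nintedanib by 0.62 ± 0.28 (interval 0.02 to 1.22), by 0.62 within each slide as well, and was the 1 gene of the 8 whose groups did not overlap, an order found for 2.12% of all genes. Its adjusted p was 0.529 and 0% of genes were called by limma, with 2630 at an unadjusted p under 0.05. Nintedanib replicate 1 held the highest level of all 15 arrays for 7 of the 8 genes. Without it the median difference between the drugs was 0.02, that of Trim30a was 0.38, and that of nintedanib from vehicle was 1.56.

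The 4 T0 arrays spread more widely than those of either drug, which rested on T0 replicate 4. The mean of the 8 levels was -0.25 ± 0.73 (SD, n = 4) in T0, -0.58 ± 0.51 (SD, n = 3) in vehicle, 0.92 ± 0.26 (SD, n = 4) in B20 and 1.17 ± 0.43 (SD, n = 4) in nintedanib. By array this mean was -0.25, -0.98, -0.52 and 0.74 in T0, so that T0 replicate 4 stood above the others. T0 replicates 1 to 3 alone ran from -0.98 to -0.25, where B20 ran from 0.56 to 1.15 and nintedanib from 0.81 to 1.78. T0 replicate 4 exceeded T0 replicates 1 to 3 and every vehicle array for 8 of 8 genes, and reached the lowest drug array for 6 of 8. The drug arrays all lay above all 4 T0 arrays for 2 of the 8 genes, Xaf1 and Ifit3b. Above T0 replicates 1 to 3 they lay for 7 (all but Ifit2), a count that leaves out the highest T0 array. The share of all genes in either order was not computed, and the T0 arrays lay on slides of their own, so these counts only describe the arrays.

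For Ifit1 the T0 arrays read 0.30, -0.55, 0.45 and 1.69. Rsad2 read -0.58, -1.89, -0.91 and 0.66, and Ifi44 read 0.64, 0.00, 1.12 and 2.28. Trim30a read -1.23, -1.63, -2.09 and -0.79. In each the fourth value was the highest, and the vehicle range lay within or overlapped the T0 range. For Ifit2, Ifit3, Ifit3b and Xaf1 the T0 levels ran from -2.21 to -1.29, from -0.39 to 1.38, from -1.64 to 0.21 and from 0.45 to 1.81.

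Vehicle and T0 overlapped for 8 of 8 genes, where 9.71% of all genes lay wholly higher and 6.97% wholly lower under vehicle. Differences ran from -0.66 ± 0.45 (Ifit3) to 0.08 ± 0.26 (Ifit2), with a median of -0.34 against 0.04 over all genes, 54% of which had a positive difference. None of the 8 was called, with adjusted p from 0.288 to 0.969 by limma, in a comparison that called 4.93% of all genes. The median rested on single arrays: it was -0.02 without T0 replicate 4, -0.03 without vehicle replicate 2 and -0.57 without T0 replicate 2. Of the neighbours, Cmpk2 was lower under vehicle by limma (-0.95 ± 0.21, adjusted p 0.0229) and Ifit1bl2, a gene within the Ifit cluster, was higher (0.65 ± 0.16, adjusted p 0.037).

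Across the 15 arrays the 8 genes varied together. Pearson's r between pairs of them ranged from 0.76 to 0.99, with a median of 0.92 over 28 pairs. With each group's mean taken out, r ranged from 0.57 to 0.97 with a median of 0.84. These are descriptions over arrays that share slides and groups, and the genes were chosen for their pattern. The lowest pairs were Ifit2 with Trim30a (0.76) and Ifi44 with Trim30a (0.80). The highest, after the copies Ifit3 and Ifit3b, was Ifit1 with Ifit3b (0.97).

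Among genes outside the list, Usp18 tracked their mean most closely, at r = 0.990 over 15 arrays and 0.971 with group means taken out. Usp18 removes the tag protein ISG15 and dampens the interferon receptor, and it was higher by 2.20 ± 0.49 under nintedanib and 1.82 ± 0.49 under B20. The next were Oas1a (0.968), Isg15 (0.961), Apol9a (0.959), Gbp3 (0.958), Oas1f (0.956), Apol9b (0.954) and Oas2 (0.947). The Oas enzymes sense double-stranded RNA, and Isg15 is the tag itself. Apol9a and Apol9b are near copies, as are several Oas1 genes, so their probes may share signal. In all, 22 of the 16092 genes with a symbol reached r = 0.9 without being listed, 0 lay at or below -0.9, and the median r was -0.00.

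**Figure D4:**
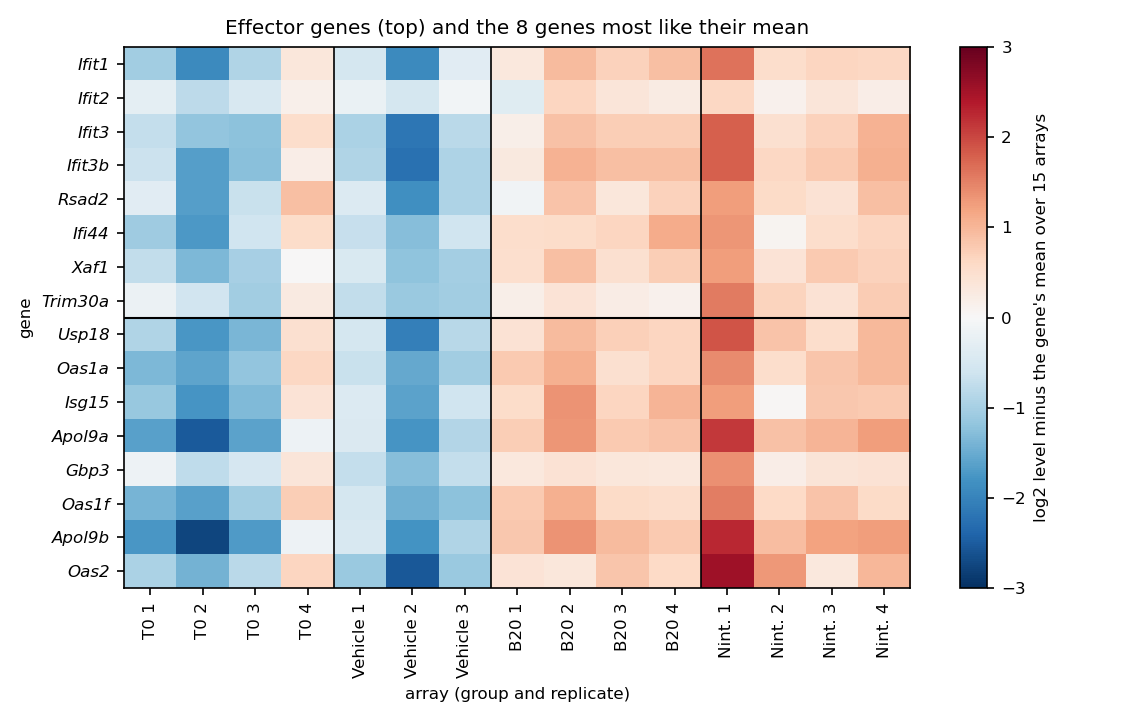
Level of the 8 effector genes (above the line) and of the 8 genes most like their mean (below), by array, minus each gene's mean over the 15 arrays (colour, log2). T0 replicates 1 to 3 and the vehicle arrays are mostly blue, and T0 replicate 4 is nearer the drug arrays.

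The pathway upstream was read from lists of interferon genes, in which no gene was called in a comparison of a drug with vehicle. Of the ligands, 11 of 21 were measured, with a median difference of 0.21 under nintedanib and 0.18 under B20. Ifng, the type II interferon, had a dim probe, well above background on 4 of 4 nintedanib arrays and 1 of 4 B20 arrays. It stood so on 0 of 3 vehicle arrays and 1 of 4 T0 arrays. The filter of 3 arrays was thus passed only through the nintedanib arrays, so its place among the measured ligands rests on them. The vehicle signal of Ifng was too dim for a fold value, so only a lower bound is given. That bound on the ratio of its mean to vehicle was 1.25 for nintedanib and 0.88 for B20, a description with no call. Since the filter was passed through the nintedanib arrays, their higher value is no evidence of a difference. Ifna1, a type I interferon, differed by 0.10 ± 0.24 and 0.18 ± 0.24. Receptors lay close to the background median, at 0.01 and 0.07 over 6 genes, with Ifnar1, a chain of the type I receptor, at 0.03 ± 0.18 and -0.44 ± 0.18.

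Signalling genes split. Irf7, a transcription factor that is itself induced by interferon, differed by 2.30 ± 0.44 under nintedanib and 1.73 ± 0.44 under B20. Irf9 differed by 0.60 ± 0.17 and 0.61 ± 0.17, and Stat2 by 0.51 ± 0.29 and 0.58 ± 0.29. Irf3, which acts before interferon is made, stood at -0.14 ± 0.15 and -0.16 ± 0.15. The list's median was 0.21 and 0.08 over 12 genes, 8 of them higher in each drug.

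Sensors of foreign RNA and DNA had medians of 0.25 under nintedanib and -0.02 under B20 over 12 genes, with 10 and 5 higher. The cytoplasmic RNA sensors Dhx58 (1.21 ± 0.28 and 1.01 ± 0.28) and Ifih1 (0.68 ± 0.21 and 0.78 ± 0.21) were among the larger differences. Zbp1, a sensor of Z-form nucleic acid, differed by 0.85 ± 0.36 and 1.05 ± 0.36. Sting1, the adaptor of DNA sensing, stood at -0.11 ± 0.19 and -0.19 ± 0.19. Of 7 negative regulators, Isg15 and Usp18 stood apart from the rest: Isg15 differed by 1.59 ± 0.46 and 1.76 ± 0.46, while Socs1, which blocks JAK kinases, stood at 0.17 ± 0.17 and 0.13 ± 0.17.

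Other antiviral effectors were higher for 35 of 38 measured genes under nintedanib and 31 of 38 under B20, with medians of 0.72 and 0.55. Oas2 (2.88 ± 0.54) and Oasl2 (2.63 ± 0.49) had the largest nintedanib differences, followed by Oas3 (2.28 ± 0.69) and Ifi27l2a (2.17 ± 0.60), and Sp110 (0.03 ± 0.16) and Zc3hav1 (0.06 ± 0.18) the smallest. The Oas3 probe was dim, well above background on 2 of 3 vehicle arrays and on all 8 drug arrays. Genes known mainly as targets of type II interferon were higher for 23 of 24 in both drugs, with medians of 0.90 and 0.62. The chemokines Cxcl10 (1.85 ± 0.55) and Cxcl9 (1.67 ± 0.39) and the GTPases Igtp (1.63 ± 0.30) and Gbp3 (1.49 ± 0.30) led the list under nintedanib, and Tgtp1 (0.11 ± 0.40) and Ciita (-0.20 ± 0.61) differed least. The comparisons of the drugs with vehicle share the vehicle arrays.

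**Figure D5:**
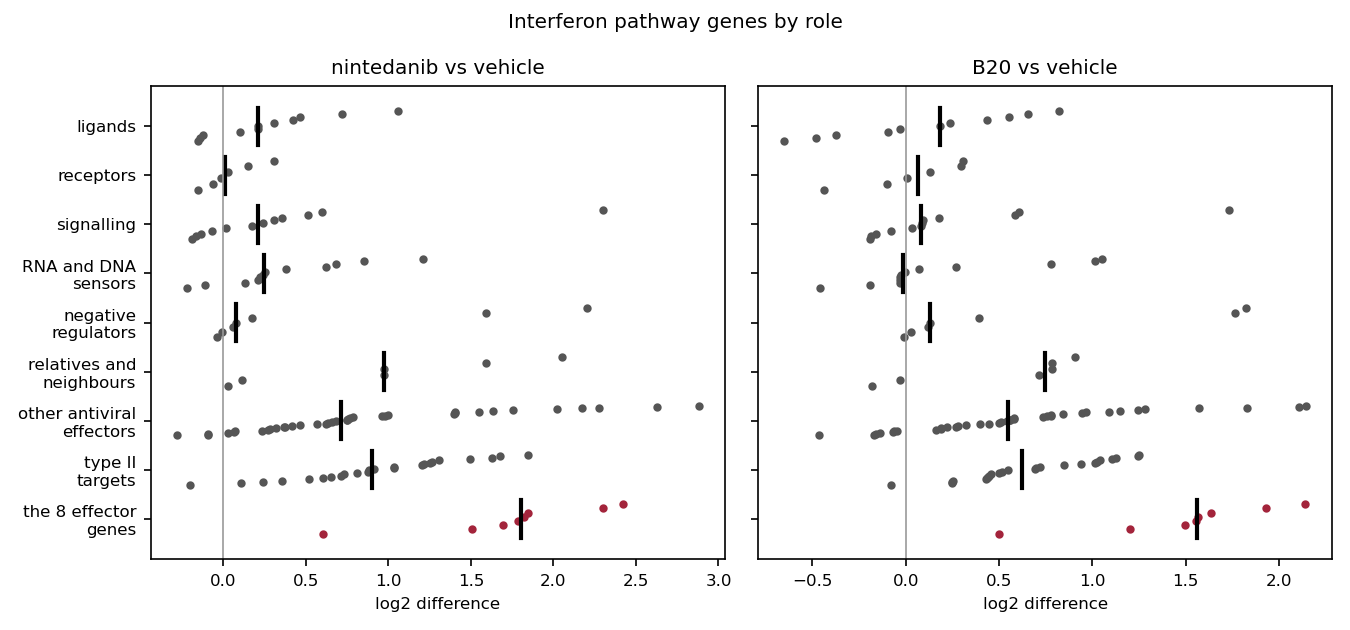
Log2 difference of each drug from vehicle for the measured genes of 8 interferon lists (grey points, dim probes such as Ifng at their fitted value) and the 8 effector genes (red points), with the median of each list (black bars). The effector genes have medians of 1.80 and 1.56, and the medians of the receptors (0.01 and 0.07) and of the signalling genes (0.21 and 0.08) lie nearer 0.

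In vehicle against T0, 12 of the 115 measured genes of these lists were called (10.4%, where 4.93% of all genes were), some of them named only after their values were seen. Ikbke was higher (1.06 ± 0.22), as was Ifit1bl2. Lower were Irf2 (-1.10 ± 0.20), Ifngr1 (-0.73 ± 0.19), Cmpk2, Ifi27l2a (-3.68 ± 0.60), Ifi204 (-1.07 ± 0.20), Iigp1 (-1.18 ± 0.21), Cxcl9 (-1.88 ± 0.39), Gbp4 (-1.57 ± 0.42), Gbp5 (-1.61 ± 0.36) and B2m (-1.19 ± 0.26), with adjusted p from 0.00755 to 0.0478 by limma. The median of the type II targets was -0.44. With only the vehicle and T0 arrays in the fit, 17 genes of the whole array were called.

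Markers of other tissues moved with the groups. Adipocyte markers were higher for 9 of 9 genes in both drugs than in vehicle, with medians of 2.20 under nintedanib and 2.12 under B20. Their summed level ran from 3.48 to 5.99 in vehicle, 5.44 to 7.68 in B20, 5.31 to 8.17 in nintedanib and 8.72 to 10.58 in T0. In T0 9 of 9 were called higher than in vehicle by limma, in a comparison that called 4.93% of all genes. That difference cannot be told apart from slide, scan and protocol. Skeletal muscle markers were higher for 8 of 9 genes under nintedanib and 9 of 9 under B20, with summed levels of 3.005 to 6.03 in vehicle, 3.69 to 10.17 in B20, 3.43 to 7.39 in nintedanib and 5.32 to 10.72 in T0. Erythroid markers were higher for 5 of 5 genes in both drugs, with medians of 0.91 under nintedanib and 1.10 under B20, and summed levels of 7.09 to 7.94 in vehicle, 6.28 to 10.07 in B20, 7.77 to 9.05 in nintedanib and 7.98 to 9.99 in T0. Neutrophil markers were higher for 5 of 7 genes under nintedanib (median 0.18) and 6 of 7 under B20 (median 0.81), with sums of 7.10 to 7.23 in vehicle, 7.06 to 7.55 in B20, 6.53 to 7.38 in nintedanib and 6.37 to 6.79 in T0. Over the 15 arrays the mean of the effector genes correlated with the sums of the 12 marker lists at r from -0.50 (fibroblasts) to 0.49 (B and plasma cells). It was -0.16 for adipocytes, -0.22 for muscle, -0.01 for erythroid cells and 0.33 for neutrophils. With group means taken out, r ran from -0.44 (muscle) to 0.51 (luminal epithelium). It was then -0.35 for adipocytes, -0.31 for erythroid cells, 0.08 for neutrophils, -0.29 for fibroblasts and 0.19 for B and plasma cells. Summed macrophage markers overlapped between groups, at 6.49 to 6.70 in vehicle, 6.60 to 6.71 in B20, 6.51 to 6.85 in nintedanib and 6.38 to 6.98 in T0. So did those of plasmacytoid dendritic cells (7.28 to 7.79, 7.48 to 7.97, 7.15 to 7.69 and 7.44 to 8.24). The bright Siglech, with means of 7.28 in vehicle, 7.34 in B20 and 7.13 in nintedanib, weighs most in that sum. Of its 8 markers 5 were higher under nintedanib and 7 under B20, with Bst2 at 1.64 ± 0.39 and 1.28 ± 0.39. In the neutrophil sum the bright Csf3r (mean 6.95 in vehicle) weighs most. An overlap of sums, or r with a sum, can thus follow 1 bright probe. T and NK cell markers ran from 3.03 to 3.31 in vehicle, 3.34 to 4.35 in B20, 2.82 to 4.04 in nintedanib and 3.22 to 3.56 in T0. The B20 arrays thus lay above the vehicle arrays by little, an order that 2.81% of all single genes showed. Of the 11 markers 9 were higher under B20, and Gzmb (-0.18 ± 0.37) and Klrb1c (-0.04 ± 0.50) were lower. B and plasma cell markers ran from 1.58 to 2.13 in vehicle, 2.07 to 2.29 in B20, 2.09 to 2.32 in nintedanib and 1.55 to 2.42 in T0. Cd8b1 and Ms4a1 were not well above background on enough arrays to be measured. The part of these cell types in the levels of the effector genes was not tested.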

How the data were processed

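Total RNA of 15 mammary tumour samples was read on 1-colour arrays in 4 groups taken from the sample titles. Per the file headers, Feature Extraction subtracted the background, and the deposited spot intensity (processed signal) carries no scaling between arrays. Flags for outlier spots and spots well above background are other values, 0 or 1, per the file headers. The authors also deposited a table of log2 values, with its processing not given in the sources used here. That table lay closest to normexp background correction followed by quantile normalisation (r at least 0.9996 on every array) and served as an alternative. Its column medians were 6.616 to 6.627.

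Control and outlier spots were dropped, and spots of a probe were averaged. Where all spots of a probe were outliers on an array (82 cases), the probe's mean over other arrays took its place. Each array's log2 signal was scaled to its 75th percentile. Probes well above background on at least 3 arrays were kept, and the brightest probe stood for its gene. Names came from RefSeq genes (GRCm38.p6), used for names and order only, which named 26050 of 55681 probes. R 4.3.3 and limma 3.58.1 (lmFit, eBayes) fitted 4 group means over 15 arrays, with two-sided p-values adjusted by Benjamini-Hochberg over 28025 genes and a threshold of 0.05. The steps were tested on simulated data. Precision is limited by the number of arrays, with a median SE of 0.29 for 4 against 3. Alternatives changed scaling, background, filter, probes, blocks, weights, slides and replicates. The normexp alternative used the median spot signal, since the files have no mean signal.

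The members and lists were chosen with earlier results of these data known. Named were all members, the 8 genes most like their mean, any gene of lists of up to 12, and in longer lists the 4 largest and 2 smallest absolute nintedanib differences, with exceptions stated.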

Additional observations from a re-analysis of the deposited data

Results flagged for a closer look

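In 1 of the 24 combinations of a gene with a group of 4 arrays, an array stood far from the others. Ifit1 read 2.98 in nintedanib replicate 1, with the nearest array of the group at 1.996 and the lowest at 1.88. The gap was 0.895 of the group's range, above Dixon's 95% critical value for 4 samples, which chance passes in about 1 of 20 groups. The same array held the highest level of all arrays for 7 of the 8 genes.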

How the results depend on the processing

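No difference of the 8 genes between a drug and vehicle changed sign in any alternative, and their median ran from 1.50 (without vehicle replicate 2) to 1.96 for nintedanib and from 1.25 (without vehicle replicate 2) to 1.80 for B20. With the replicate block these medians were 1.66 and 1.42, and the block called 0 of the 8 in every comparison and 1225 genes in vehicle against T0. Same-numbered arrays of different groups deviated together at r from -0.25 to 0.38. The labels state no pairing, and with so few arrays per group these values cannot decide whether they share more than a number. Array weights called 12 of 28025 genes in nintedanib against vehicle, 4 of them members (Ifit3, Ifit3b, Xaf1 and Trim30a), where the equal-weight fit called 0. No other alternative called a member in this comparison. The members were chosen with results of these data known, so calls among them lend no support. Leaving out an array gave 0 to 2 genes called there (2 without T0 replicate 4, 1 without vehicle replicate 2), and 0 to 1 in nintedanib against B20 (1 without vehicle replicate 1). Fitting only the groups compared called 1 gene in nintedanib against B20. The 1382 genes called in vehicle against T0 became 680 with median scaling, 894 without the filter, 875 with slide as a random block, 17 with only these groups and 5274 with array weights, and leaving out an array gave 480 (without vehicle replicate 3) to 2097 (without T0 replicate 4). The cause was not tested. The share of promoters with the motif was 1.59% in the 150 bases before the start, against 3.44%. Within nintedanib against B20, Ifit1, Ifit2, Ifi44 and Xaf1, and in vehicle against T0, Ifit1, Ifit2, Ifi44 and Xaf1, changed sign in at least 1 alternative, with differences of 0.16 or less in the reported fit. Signal over background limits the dim second probes of Ifit3b and Xaf1.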
